A study of Mus musculus with 92 samples.

Results

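The MS4A family is a group of membrane proteins with 4 membrane-spanning segments, most of them encoded side by side in a cluster on mouse chromosome 19. The members were taken by gene symbol, a named set chosen before any value was read: Ms4a3, Ms4a4a, Ms4a4c, Ms4a6b, Ms4a6c, Ms4a6d and Ms4a7, which are 7 of the 29956 named genes. As background, Ms4a3 marks granulocyte-monocyte progenitors, Ms4a4a works beside the beta-glucan receptor Clec7a on macrophages, and Ms4a7 is used to tell border and bone-marrow-derived brain macrophages from microglia. Ms4a4c, Ms4a6b, Ms4a6c and Ms4a6d are expressed in mouse monocytes and macrophages, and Ms4a4c is often counted among interferon-induced genes. The human MS4A cluster is linked to the level of soluble TREM2. Another 14 genes of the wider superfamily were followed as a list, among them Ms4a1 (CD20 of B cells) and Ms4a2 (a chain of the high-affinity IgE receptor).

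The study follows myeloid cells of FVB mice from progenitors to cells living in the brain, in 92 bulk RNA libraries of 25 groups. ER-Hoxb8 cells are marrow progenitors held immature by an estrogen-dependent Hoxb8 and released to mature in M-CSF. At day 0, day 4 and day 7 they come from Cas9 mice and the marrow cells from wild-type mice, so origin, genotype and Hoxb8 cannot be told apart between them. Bone-marrow-derived (BMD) macrophages, marrow progenitors and marrow monocytes are the primary counterparts. Microglia-like cells (MLCs) were recovered by sorting from brains of Csf1r KO hosts that had received BMD or ER-Hoxb8 cells as newborns, and the microglia come from uninjected wild-type mice. For Adar1, Cas9-carrying ER-Hoxb8 progenitors received 1 of 2 guides against Adar (sg1, sg2) or a non-targeting control guide (NTC) and were sequenced as progenitors and as macrophages. A further series of KO sg1 and NTC cells was kept in the JAK inhibitor baricitinib at 0, 0.0006, 0.016, 0.4 or 10 µM, as the sample labels give the doses (the protocol text gives the lower ones differently). ADAR1 edits double-stranded RNA, and its loss is known to set off an interferon response, which JAK inhibitors block downstream of the receptor.

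Values are log2 CPM (counts scaled to library size) as normalized by the authors, and the lowest value a column can hold shows which libraries were scaled together. There are 6 such sets and no level is compared across them. Set A (12 libraries, lowest value -4.34) holds marrow progenitors, marrow monocytes and ER-Hoxb8 cells at day 0 and day 4. Set B (27 libraries, -3.62) holds both macrophage groups at day 7, both MLC groups and microglia. Set C (11 libraries, -3.43) holds KO sg1 and NTC progenitors and macrophages, except NTC macrophage replicate 2, which sits on a scale of its own (-3.09) and was left out of the tests. Set D (8 libraries, -3.56) holds the sg2 cells and set E (33 libraries, -2.78) the baricitinib series. Depth, in M counts and estimated from the smallest steps between values, ran from 6.0 to 61.3 (median 21.3): 34.4 to 48.9 in set A, 8.6 to 61.3 in set B, 17.3 to 41.5 in set C, 18.6 to 27.3 in set D and 6.0 to 34.3 in set E. A gene is called here when limma gives an adjusted p under 0.05 and a log2 fold change of at least 2 in size.

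Several libraries stand apart from their replicates and bear on the members. ER-Hoxb8 day-0 replicate 2 has the marker profile of maturing cells: its macrophage markers sum to 59613 CPM (other day-0 libraries 15824 and 615; day 4 from 42737 to 62852) and its progenitor markers to 34.3 CPM (others 361 and 4444). It may be mislabelled, which would change what the day-0 and day-4 values mean, and it was kept as labelled. BMD macrophage replicate 3 bears the library name wBM_1, where the others are Mac1 and Mac3. It has a monocyte marker sum of 1133 CPM (others 57.2 and 39.7). ER-Hoxb8 macrophage replicate 3 is low for 4 members. ER-Hoxb8 MLCs bear different library names, GFPHox for replicates 1 to 3 and WTHox with the ending Lo for replicates 4 to 6, which may stand for donor line, genotype, sort gate or batch. Among them replicate 6 has a monocyte marker sum of 7577 CPM (others 224 to 787) and a microglia marker sum of 848 CPM (others 6237 to 10287). Microglia replicates 8 and 9 carry another library name and lower Ms4a4a and Ms4a7, and KO replicate 2 at 0.4 µM baricitinib is unlike the other 0.4 µM KO libraries. Results with and without these libraries are given where they matter.

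The members sit in 1 stretch in the order Ms4a7, Ms4a4a, Ms4a4c, Ms4a6c, Ms4a6b, Ms4a6d, Ms4a3, with other genes in between. Of the family, Ms4a14 lies on the far side of Ms4a7. Ms4a4b lies between Ms4a4c and Ms4a6c, Ms4a4d between Ms4a6b and Ms4a6d, and Ms4a2 between Ms4a6d and Ms4a3. Promoters of 300 bases (250 before the start of transcription, 50 after) from RefSeq, build GRCm38.p6, could be matched by symbol for 6 of the 7 members, all except Ms4a6d. The interferon-response core GAAANNGAA (TTCNNTTTC on the other strand) occurs on either strand in 8.56% of all 32851 promoters, the STAT core TTCNNNGAA in 8.3% and the PU.1 core GAGGAAG, or in reverse CTTCCTC, in 13.6%. Ms4a6b holds GAAAGTGAA 206 bases before its start (chr19:11518309-11518608, plus strand) and Ms4a6c holds the same letters 133 bases before its start (chr19:11469118-11469417, plus strand). Ms4a7 holds TTCGTTTTC, an opposite-strand match, 71 bases before its first listed start and GAAAAGGAA 148 bases before its second. In the windows of Ms4a3, Ms4a4a and Ms4a4c (chr19:11407411-11407710, plus strand) none of the 3 motifs is present, and the STAT and PU.1 letters are in no member window. The windows of Ms4a6b, Ms4a6c and Ms4a4c read:
Ms4a6b: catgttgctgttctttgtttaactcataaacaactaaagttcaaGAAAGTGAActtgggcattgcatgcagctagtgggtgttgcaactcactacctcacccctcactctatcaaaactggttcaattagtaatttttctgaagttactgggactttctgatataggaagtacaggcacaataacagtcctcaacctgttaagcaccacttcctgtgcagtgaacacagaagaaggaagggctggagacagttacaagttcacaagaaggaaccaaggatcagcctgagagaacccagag
Ms4a6c: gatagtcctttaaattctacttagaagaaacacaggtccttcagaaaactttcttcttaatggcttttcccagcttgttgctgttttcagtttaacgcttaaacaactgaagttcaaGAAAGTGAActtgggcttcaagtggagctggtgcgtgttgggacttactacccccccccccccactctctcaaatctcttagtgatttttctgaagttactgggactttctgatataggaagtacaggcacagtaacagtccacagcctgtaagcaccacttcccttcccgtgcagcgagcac
Ms4a4c: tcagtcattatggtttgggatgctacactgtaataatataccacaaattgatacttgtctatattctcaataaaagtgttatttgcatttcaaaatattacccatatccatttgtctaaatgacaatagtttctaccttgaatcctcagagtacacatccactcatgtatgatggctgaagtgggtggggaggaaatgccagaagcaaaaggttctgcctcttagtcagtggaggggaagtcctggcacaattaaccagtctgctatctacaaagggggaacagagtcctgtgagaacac

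Closely related genes share stretches of sequence, so reads can be divided between them. Of the 31-base words of Ms4a6c transcripts, 21.9% also occur in another gene (13.9% in Ms4a6b), and for Ms4a4c 17.1% do (13% in Ms4a4b). The shares are 8.11% for Ms4a6d, 7.84% for Ms4a6b, 1.22% for Ms4a7, 0.798% for Ms4a3 and 0% for Ms4a4a. How far reads of Ms4a6b and Ms4a6c were exchanged is uncertain.

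In marrow, 5 of the 7 members are much higher in monocytes than in progenitors. Ms4a4a and Ms4a4c show it most strongly in fold terms, and Ms4a6b, Ms4a6c and Ms4a6d share the direction. Ms4a3, the progenitor marker, is high in both groups and does not separate them. The called differences between the 2 preparations are thus in the Ms4a4 and Ms4a6 genes, while Ms4a7 is higher in monocytes without being called.

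Ms4a4a measured -1.79, -0.67 and -0.22 log2 CPM in progenitors and 3.28, 3.89 and 4.10 in monocytes. Ms4a4c went from 3.71, 4.27 and 4.13 to 8.46, 8.50 and 8.67, and Ms4a6d from 2.43, 3.43 and 3.23 to 7.11, 7.21 and 7.49. Progenitor and monocyte libraries do not overlap for any of these genes. The log2 fold changes were 4.65 for Ms4a4a (SE 0.55, adjusted p = 0.000707, limma), 4.51 for Ms4a4c (SE 0.53, adjusted p = 0.000657) and 4.24 for Ms4a6d (SE 0.34, adjusted p = 0.000171). Ms4a6c, at 6.49, 6.54 and 6.32 in progenitors against 9.96, 9.67 and 10.26 in monocytes, rose by 3.51 (SE 0.38, adjusted p = 0.000465). Ms4a6b rose by 3.41 (SE 0.31, adjusted p = 0.000246), with group means of 3.87 and 7.28. That makes 5 of 7 members called, where 6.84% of all tested genes were (825 of 12056), and the median member log2 fold change is 3.51 against -0.09 for all genes.

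Ms4a3 read 6.58, 8.12 and 8.29 in progenitors and 5.92, 6.36 and 7.11 in monocytes, with overlap (log2 fold change -1.20, SE 1.85, adjusted p = 0.704). Ms4a7 was low in progenitors (0.67, 1.54 and 1.20) and higher in monocytes (3.85, 3.51 and 3.41) without overlap, yet it was not called: 2.46, SE 1.60, adjusted p = 0.328. Its SE is set largely by the spread of the ER-Hoxb8 libraries in the same fit, and with the marrow groups fitted alone, an alternative chosen after seeing the data, Ms4a7 is a sixth called member. Neutrophil markers are plentiful in both groups and uneven between replicates (272, 9002 and 3961 CPM in progenitors; 422, 8234 and 3767 in monocytes), and progenitor markers reach 5475 to 8849 CPM in the monocytes. The progenitors had been depleted of lineage-positive cells and the monocytes enriched with an isolation kit, both on magnetic columns. How much of the Ms4a3 signal in either group comes from admixed granulocyte precursors was not tested. Because these are bulk libraries, fewer cells of a type and less RNA per cell cannot be told apart.

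ER-Hoxb8 progenitors at day 0 carry a different set of family transcripts from marrow progenitors. Ms4a4c and Ms4a6c are nearly off and Ms4a4a is at the limit of detection. Ms4a6d is high, with a mean of 6.69 near the 7.27 of marrow monocytes, a difference that was not tested. Ms4a3 varies enormously between the day-0 libraries. Other cell types differ as well: neutrophil markers are at 11.1 to 36.7 CPM at day 0 against 272 to 9002 in marrow progenitors, and basophil and mast cell markers at 3.04 to 13.5 against 3025 to 4657.

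Ms4a6c measured 0.63, 2.17 and 0.54 at day 0, far under every marrow progenitor library (6.32 at the lowest), a fall of 5.33 (log2 fold change -5.33, SE 0.38, adjusted p = 1.9e-06, limma). Ms4a4c, at -2.07, -0.06 and -0.61, changed by -4.95 (SE 0.53, adjusted p = 4.19e-05). Ms4a6d went the other way, with 7.21, 6.54 and 6.31 against 3.43 at most in marrow progenitors (3.66, SE 0.34, adjusted p = 1.64e-05). The groups are separated in each of the 3 genes. Ms4a4a had a total of 1.0 count over the day-0 libraries, so its call (-3.26, adjusted p = 0.00117) rests on a count ratio of 67.4 with an interval of 12.1 to 2684, and it is lost with a pseudocount of 1 (-0.60, adjusted p = 0.0992). Intervals of this kind, here and below, cover counting error only. In total 4 of 7 members were called, against 15.3% of all tested genes (1843 of 12056). Monocytes and day-0 cells are both set against the same marrow progenitors: Ms4a4c reads 4.51 and -4.95, Ms4a6c 3.51 and -5.33, Ms4a6b 3.41 and -1.34, and Ms4a6d 4.24 and 3.66.

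No gene is called between day 0 and day 4 of M-CSF, and day-0 replicate 2 already has the marker profile of maturing cells. Ms4a3 tends down and Ms4a7 tends up, and 1 day-0 library decides whether either is called.

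Ms4a3 read 6.38, 0.17 and 10.59 at day 0 and 0.49, 1.41 and 0.97 at day 4, while Ms4a7 read 0.77, 6.72 and 0.47 at day 0 and 7.44, 7.01 and 2.10 at day 4. Day-0 replicate 2 alone falls inside the day-4 range of Ms4a7 and below it for Ms4a3. None of the 7 members was called by limma at an adjusted p under 0.05 (2 at an unadjusted p under 0.05, 1129 of all 12056 genes), and the share of all genes called was 0%. Ms4a3 had a log2 fold change of -4.76 (SE 1.85, adjusted p = 0.497) and Ms4a7 of 2.86 (SE 1.60, adjusted p = 0.578). Same-numbered libraries deviate together here, and within the pairs Ms4a7 is higher at day 4 each time (0.77 to 7.44, 6.72 to 7.01 and 0.47 to 2.10). With the pairs as a block, though, 0 members are called. The share of all genes that keep the same direction in every pair was not counted. Without day-0 replicate 2, 738 genes are called and Ms4a3 and Ms4a7 are the 2 members among them. Ms4a6c, at 1.84, 2.11 and 2.20 on day 4, overlaps day 0 (0.93, adjusted p = 0.509).

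Ordered by group mean within set A, Ms4a3 runs from marrow progenitors (7.66) over monocytes (6.47) and day 0 (5.72) to day 4 (0.96), with overlapping neighbours throughout. Ms4a4a, Ms4a4c, Ms4a6b and Ms4a6c share another order: monocytes, then marrow progenitors, then the ER-Hoxb8 groups, the day-0 and day-4 libraries overlapping for all but Ms4a4a. Ms4a6d has marrow progenitors lowest and apart (3.03, against 6.54 at day 4, 6.69 at day 0 and 7.27 in monocytes), and Ms4a7 has them lowest too but with overlaps at every step.

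**Figure D1:**
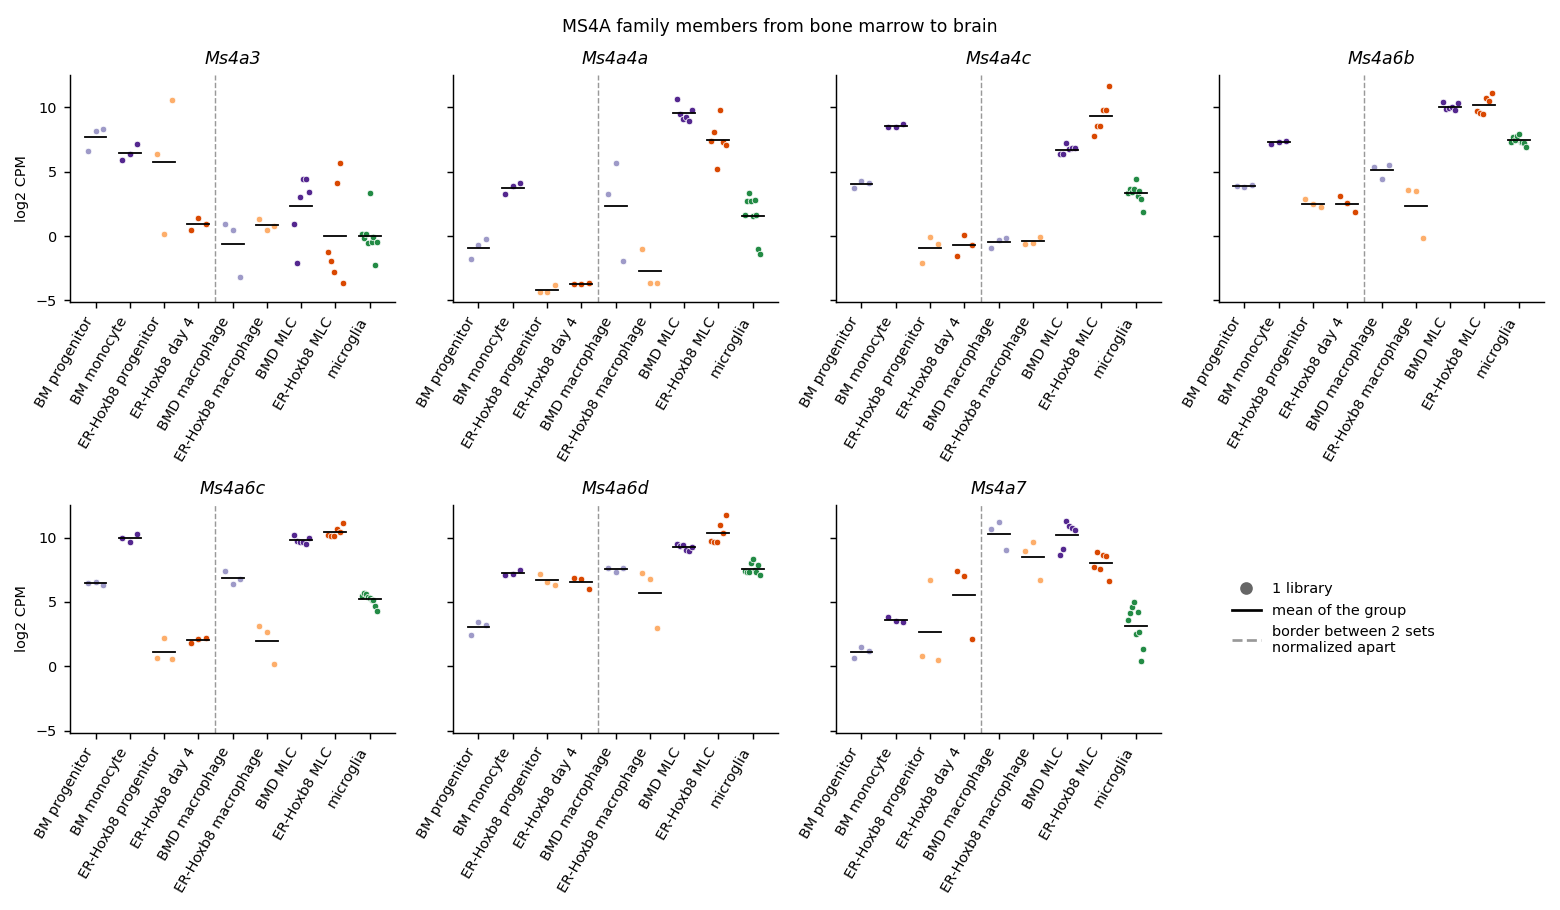
Log2 CPM of each member (1 panel per gene) by group, dots for libraries and bars for group means, with a dashed line between set A and set B, which are not compared. Ms4a4c is highest in monocytes on the left (mean 8.54) and in ER-Hoxb8 MLCs on the right (mean 9.34), while Ms4a7 is lowest in microglia among the set B groups (mean 3.17).

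Among macrophages grown in the dish, ER-Hoxb8 cells hold less Ms4a6c than BMD macrophages. Calls for Ms4a6b and Ms4a4a hang on single libraries. Both kinds of macrophage have abundant Ms4a7 and hardly any Ms4a4c. Ms4a4a is present in 2 of the 3 BMD libraries and close to absent in ER-Hoxb8 macrophages.

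Ms4a6c read 7.44, 6.41 and 6.80 in BMD and 3.10, 2.67 and 0.21 in ER-Hoxb8 macrophages, without overlap (log2 fold change -4.89, SE 0.49, adjusted p = 2.61e-07, limma). Ms4a6b read 5.38, 4.44 and 5.55 against 3.61, 3.52 and -0.14 (-2.79, SE 0.60, adjusted p = 0.00809), and Ms4a4a 3.27, 5.68 and -1.97 against the lowest value of -3.62 in ER-Hoxb8 replicates 2 and 3 and a mean of -2.74 (-5.07, SE 1.36, adjusted p = 0.0498, with overlap). These are 3 of 7 members, against 1.85% of all tested genes (232 of 12518). Much hangs on ER-Hoxb8 macrophage replicate 3: without it only Ms4a6c is called of the members (adjusted p = 2.8e-07), Ms4a6b reads -1.56 (adjusted p = 0.0484) and Ms4a4a -4.64 (adjusted p = 0.238). Ms4a4a is also lost without BMD replicate 1 or 2 or ER-Hoxb8 replicate 2, with a pseudocount of 1 (adjusted p 0.16 to 0.357) or without the filter (0.0732), and Ms4a6b without BMD replicate 3 (adjusted p = 0.0535). With the macrophages fitted alone, an alternative chosen after seeing the data, no member is called and Ms4a6c has an adjusted p of 0.077. Ms4a6d (-1.87, adjusted p = 0.218) and Ms4a7 (-1.85, adjusted p = 0.672) were not called.

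BMD cells recovered from the brain carry far more Ms4a4a, Ms4a4c and Ms4a6b than the BMD macrophages. Ms4a6c is higher as well. Ms4a7 is as high in the brain as in the dish. Ms4a3 appears in some MLC libraries along with neutrophil transcripts.

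Ms4a4a ranged from 8.96 to 10.64 (median 9.36) in BMD MLCs against 5.68 at most in BMD macrophages (log2 fold change 7.20, SE 1.18, adjusted p = 6.72e-05, limma). Ms4a4c ranged from 6.34 to 7.19 in BMD MLCs, where the BMD macrophages read -0.95, -0.32 and -0.12 (7.17, SE 0.56, adjusted p = 1.53e-09). Ms4a6b lay between 9.80 and 10.39 against 5.55 at most (4.93, SE 0.52, adjusted p = 1.47e-07). MLC and macrophage libraries are fully separated in these genes, and in Ms4a6c (9.51 to 10.20 against 7.44 at most; 2.91, SE 0.42, adjusted p = 1.4e-05). With those, 4 of 7 members were called, against 15.9% of all tested genes (1995 of 12518). Ms4a6d was higher by less than the limit (1.72, SE 0.57, adjusted p = 0.0238), a difference that passes 0.05 only with all 3 macrophage libraries (0.0579 to 0.0776 when any 1 is left out). Ms4a7 ranged from 8.61 to 11.29 in BMD MLCs and overlaps the macrophages (-0.09, SE 0.85, adjusted p = 0.946). Marker sums differ between brain and dish too. Macrophage markers are at 12701 to 17883 CPM in BMD MLCs against 41971 to 61595 in BMD macrophages. Neutrophil markers are at 4095 to 31732 against 2.94 to 15.2, and microglia markers at 5147 to 17394 against 450 to 897. Border macrophage markers are at 1522 to 2320 against 220 to 323.

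ER-Hoxb8 cells show the same kind of difference between dish and brain with larger estimates, though the 2 differences were not tested against each other. All 4 genes named for BMD MLCs are called, and Ms4a6d joins them. Ms4a7 is once more not called.

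Ms4a6c ranged from 10.11 to 11.17 in ER-Hoxb8 MLCs against 3.10 at most in ER-Hoxb8 macrophages (log2 fold change 8.45, SE 0.42, adjusted p = 4.99e-14, limma). Ms4a4c read 7.76, 8.55 and 8.51 in the GFPHox libraries and 9.79, 9.78 and 11.67 in the WTHox libraries, against -0.58, -0.56 and -0.09 (9.75, SE 0.56, adjusted p = 1.01e-12). Ms4a4a ranged from 5.20 to 9.79 (10.21, SE 1.18, adjusted p = 3.31e-07). No ER-Hoxb8 MLC library comes near its macrophages in these genes. Ms4a6b (7.84, SE 0.52, adjusted p = 1.76e-11) and Ms4a6d (4.68, SE 0.57, adjusted p = 7.24e-07) complete the 5 of 7 members called, against 19.3% of all tested genes (2416 of 12518). The GFPHox and the WTHox libraries each give the same 5 members alone. Ms4a7, between 6.60 and 8.89, overlaps the macrophages (-0.45, SE 0.85, adjusted p = 0.701). Brain minus dish is set out here for BMD and ER-Hoxb8 cells in turn. It reads 7.20 and 10.21 for Ms4a4a, 7.17 and 9.75 for Ms4a4c, and 4.93 and 7.84 for Ms4a6b. For Ms4a6c it reads 2.91 and 8.45, and for Ms4a6d 1.72 and 4.68. Of a list of 10 interferon-induced genes, 10 were called higher in brain than in dish for ER-Hoxb8 cells and 1 for BMD cells. Macrophage markers are at 6186 to 28160 CPM in ER-Hoxb8 MLCs against 59361 to 68785 in ER-Hoxb8 macrophages. Neutrophil markers are at 229 to 40368 against 9.32 to 36.5, and microglia markers at 848 to 10287 against 242 to 712. Brain cells were sorted straight into lysis reagent and dish cells were not, so place and handling cannot be told apart. By the paper's legend progenitors were injected, so the MLCs do not descend from the dish macrophages. The ER-Hoxb8 macrophages come from Cas9 mice, and the names GFPHox and WTHox may stand for other donor lines. Donor line or genotype may thus differ along with place.

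Set against true microglia, engrafted BMD cells stand out by 5 of the 7 members. Ms4a7 and Ms4a4a differ most, Ms4a6c and Ms4a4c follow, and Ms4a6b is high in both cell types but higher in MLCs. Microglia do express Ms4a6b and Ms4a6d strongly.

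Ms4a7 ranged from 0.42 to 5.00 (median 3.58) in microglia and from 8.61 to 11.29 in BMD MLCs, with no overlap (log2 fold change 7.04, SE 0.63, adjusted p = 2.52e-09, limma). Ms4a4a ranged from -1.38 to 3.33 (median 1.63) in microglia, below the lowest BMD MLC at 8.96 (7.98, SE 0.88, adjusted p = 1.19e-07). Ms4a6c, 4.26 to 5.73 in microglia, lies under 9.51, the lowest BMD MLC (4.58, SE 0.31, adjusted p = 1.87e-11). Microglia are thus lower in every library for the 3 genes. Ms4a4c (3.39, SE 0.41, adjusted p = 6.43e-07) and Ms4a6b (2.62, SE 0.39, adjusted p = 1.19e-05) make 5 of 7 members, against 10.7% of all tested genes (1338 of 12518). Ms4a6d was higher in BMD MLCs by 1.68 (SE 0.42, adjusted p = 0.00472), within the limit. Leaving out microglia replicates 8 and 9, the lowest for Ms4a7 and Ms4a4a, gives the same 5 members. Monocyte markers are higher as well, at 559 to 1538 CPM in BMD MLCs against 18.1 to 122 in microglia. Neutrophil markers are at 4095 to 31732 CPM against 403 to 5735. The MLCs come from injected Csf1r KO hosts and the microglia from uninjected wild-type mice. Cell origin, host genotype and injection therefore cannot be told apart.

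ER-Hoxb8 MLCs differ from microglia in the same direction in all genes of the Ms4a4 and Ms4a6 groups and in Ms4a7. Ms4a6d passes the fold limit here, where in BMD MLCs it did not.

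Ms4a4c, 1.87 to 4.41 (median 3.44) in microglia, was at 7.76 or more in ER-Hoxb8 MLCs (log2 fold change 6.02, SE 0.41, adjusted p = 9.74e-12, limma). Ms4a6c gave 5.24 (SE 0.31, adjusted p = 1.08e-12) and Ms4a4a 5.91 (SE 0.88, adjusted p = 6.68e-06). Ms4a7, at 6.60 or more, gave 4.83 (SE 0.63, adjusted p = 8.96e-07), Ms4a6d 2.77 (SE 0.42, adjusted p = 9.42e-06) and Ms4a6b 2.74 (SE 0.39, adjusted p = 3.02e-06). Microglia lie below every ER-Hoxb8 MLC library in all 6 genes, which are the 6 of 7 members called, against 16.3% of all tested genes (2040 of 12518). Both MLC groups are set against the same 9 microglia libraries: in BMD and ER-Hoxb8 MLCs in turn, Ms4a7 reads 7.04 and 4.83, Ms4a4a 7.98 and 5.91, Ms4a4c 3.39 and 6.02, and Ms4a6d 1.68 and 2.77. GFPHox and WTHox libraries each give the same 6 members alone. Of the interferon-induced genes, 10 of 10 were called higher in ER-Hoxb8 MLCs than in microglia, and 2 of 10 in BMD MLCs. Monocyte markers are at 224 to 7577 CPM in ER-Hoxb8 MLCs against 18.1 to 122 in microglia. Neutrophil markers are at 229 to 40368 CPM against 403 to 5735. Cell origin, host genotype and injection cannot be told apart here either.

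The 2 kinds of MLC are close to each other in Ms4a6b and Ms4a6c and part ways in Ms4a4c and Ms4a7. Ms4a4c is higher in ER-Hoxb8 MLCs, where interferon-induced genes are higher too. Ms4a7 is lower there.

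Every ER-Hoxb8 MLC library lies above the highest BMD MLC (7.19) in Ms4a4c, with a log2 fold change of 2.64 (SE 0.45, adjusted p = 0.000219, limma). Ms4a7, in replicate order, read 8.61, 9.12, 11.29, 10.92, 10.75 and 10.57 in BMD MLCs and 7.68, 8.89, 7.56, 8.67, 8.60 and 6.60 in ER-Hoxb8 MLCs, with overlap (-2.21, SE 0.69, adjusted p = 0.0304). That is 2 of 7 members called, against 6.56% of all tested genes (821 of 12518). The count is unsteady. With the GFPHox libraries alone Ms4a3 is the 1 member called, Ms4a4c reading 1.57 (adjusted p = 0.00792), and with the WTHox libraries alone Ms4a4c is (3.71, adjusted p = 4.77e-06). Only 1 member is called, too, when any of BMD MLC replicates 3 to 6 or ER-Hoxb8 MLC replicate 3 or 6 is left out, Ms4a7 then having an adjusted p between 0.0578 and 0.0709, or without the filter (0.0559). Ms4a4a was not called (-2.07, adjusted p = 0.154) and Ms4a6d (1.10, SE 0.46, adjusted p = 0.114) neither, though the Ms4a6d libraries do not overlap. Of 10 interferon-induced genes, all 10 are called higher in ER-Hoxb8 MLCs, and Ifit1 read 6.34 to 8.87 there against 1.35 to 4.32 in BMD MLCs.

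Ms4a3 in the brain libraries goes along with neutrophil markers. BMD MLC replicates 3 to 6 have 28063 to 31732 CPM of 5 neutrophil genes and Ms4a3 at 3.01, 4.44, 4.43 and 3.45, whereas replicates 1 and 2 have 6868 and 4095 CPM and Ms4a3 at 0.96 and -2.07. ER-Hoxb8 MLC replicates 4 and 5 (17580 and 40368 CPM) read 4.13 and 5.64 and the other 4 libraries (229 to 3262 CPM) between -3.62 and -1.23. Microglia replicate 5, with 5735 CPM the highest of its group, reads 3.38, and the other microglia 0.19 or less. Progenitor markers are higher in the same ER-Hoxb8 MLC libraries (98.2 and 226 CPM, others 3.55 to 28). In BMD MLCs they are at 123 to 196 CPM in replicates 3 to 6, against 52.8 and 104. In microglia they do not single out replicate 5 (96.3 CPM, group 30.5 to 115). Over the 27 libraries the closest genes to Ms4a3 are Elane (r = 0.94), Ctsg and Mpo (both 0.89), all granule genes of neutrophil precursors. Ms4a3 was called in none of the 6 set B comparisons, and what share of it stems from neutrophils or progenitors was not tested.

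**Figure D2:**
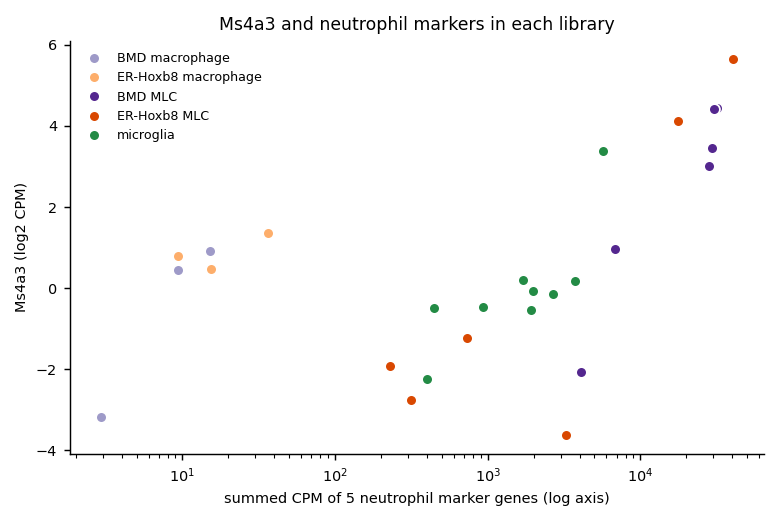
Ms4a3 (log2 CPM) against the summed CPM of 5 neutrophil marker genes (log axis) for the 27 set B libraries, colored by group. The brain libraries with Ms4a3 at 3.01 or more all have at least 5735 CPM of neutrophil markers.

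Ordered by mean within set B, Ms4a4c steps down from ER-Hoxb8 MLCs (9.34) over BMD MLCs (6.71) and microglia (3.32) to both macrophage groups (-0.41 and -0.46), and only the macrophages overlap. Ms4a6b has microglia (7.43) between the MLCs (10.17 and 10.05) and the macrophages (5.12 and 2.33), while Ms4a6c has BMD macrophages (6.88) above microglia (5.21). Ms4a6d puts microglia (7.58) and BMD macrophages (7.54) together below the MLCs (10.35 and 9.26). For Ms4a7 the other 4 groups, from 8.00 to 10.30, stand above microglia (3.17). Border macrophage markers, with Mrc1 as the top gene, sum to 1522 to 2320 CPM in BMD MLCs, 6.59 to 1034 in ER-Hoxb8 MLCs and 10.7 to 115 in microglia, and microglia markers to 5147 to 17394, 848 to 10287 and 52536 to 86051 CPM.

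Some other genes of the superfamily are called in the brain comparisons too. Ms4a4b (5.48, adjusted p = 4.69e-07), Ms4a4d (3.83, adjusted p = 1.42e-06), Tmem176a (6.98, adjusted p = 2.23e-06) and Tmem176b (6.44, adjusted p = 4.16e-05) were called higher in BMD MLCs than in BMD macrophages, 4 of the 7 listed genes tested where 15.9% of all genes were called. The counts are 5 of 7 for ER-Hoxb8 MLCs against macrophages (19.3% of all genes), 3 and 4 of 7 for BMD and ER-Hoxb8 MLCs against microglia (10.7% and 16.3%) and 1 of 7 between the MLCs (6.56%). Ms4a14, the neighbour of Ms4a7, was higher in BMD MLCs than in microglia by 7.44 (adjusted p = 1.52e-10) and lower in ER-Hoxb8 than in BMD MLCs by 3.20 (adjusted p = 0.000917), the directions of Ms4a7. Trem2 was lower in ER-Hoxb8 MLCs than in microglia (-2.73, adjusted p = 3.58e-05), and Clec7a, the partner of Ms4a4a, was higher in both MLC groups (4.82, adjusted p = 2.09e-05 in BMD; 3.25, adjusted p = 0.00112 in ER-Hoxb8). In marrow, monocytes had less Ms4a1 (-4.76, adjusted p = 0.023), along with lower sums of 3 other B cell markers (55, 64.3 and 72.2 CPM against 118, 749 and 536), and more Ms4a8a (5.64, adjusted p = 0.00589) than progenitors. Tyrobp, which macrophages use as an adaptor, is listed at the lowest value in 8 of 8 set D and 29 of 33 set E libraries, so nothing is read from it.

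Turning to Adar1, the target transcript itself is not lower than in NTC in KO sg1 progenitors or untreated KO sg1 macrophages. It is lower in KO than in NTC at 10 µM baricitinib (1.55, 2.15, 2.91 and 2.03 against 3.70, 3.64 and 3.22, log2 fold change -1.36, adjusted p = 0.0146, limma). Guide edits need not lower a transcript, and Adar is itself induced by interferon. KO sg1 progenitors read 4.36, 4.23 and 4.24 for Adar against 4.20, 3.42 and 4.28 in NTC (0.31, adjusted p = 0.924), and KO sg1 macrophages 6.96, 7.15 and 7.01 against 5.73 and 5.67 (1.34, adjusted p = 0.000976). No member tested is called between KO and NTC progenitors. Ms4a3 is very high in both, and Ms4a6d overlaps between them.

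Ms4a3 read 11.23, 11.27 and 11.04 in KO sg1 and 11.31, 11.52 and 11.17 in NTC progenitors, with overlap (log2 fold change -0.16, SE 0.18, 95% interval -0.56 to 0.25, adjusted p = 0.99, limma). Same-numbered libraries deviate together here too, and within the pairs Ms4a3 is lower in KO each time. How many of all genes keep the same direction in every pair was not counted, so no KO effect is read from it. With the pairs as a block 0 members are called. Ms4a6d, at 5.93, 5.57 and 5.41 against 5.89, 5.78 and 5.20, gave 0.01 (95% interval -0.60 to 0.62). None of the 6 members tested was called by limma (0 at an unadjusted p under 0.05, 725 of all genes), against 0.254% of all tested genes (28 of 11008), and the smallest adjusted p of a member was 0.954. Ms4a4a was not tested, and its counts put NTC over KO by a ratio of 3.64 with an interval of 1.02 to 28.8. The 10 interferon-induced genes were not called here either.

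Once the cells are macrophages, loss of Adar1 goes with a rise of Ms4a4c and of all 3 Ms4a6 genes. Ms4a7 leans the other way. Ms4a3 is off in both. The same macrophages show a full interferon-type response, which bulk values cannot link to the members.

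Ms4a4c read 7.54, 6.63 and 5.20 in KO sg1 macrophages against 0.47 and 0.22 in NTC (log2 fold change 6.11, SE 0.72, adjusted p = 0.000104, limma). Ms4a6c read 7.54, 6.97 and 6.49 against 2.23 and 1.90 (4.93, SE 0.36, adjusted p = 2.71e-06), and Ms4a6b 5.44, 4.88 and 3.94 against 1.39 and 1.28 (3.42, SE 0.43, adjusted p = 0.000182). Every KO library is above both NTC libraries in these genes, and so for Ms4a6d, with 8.78, 8.08 and 7.61 against 5.48 and 5.07 (2.88, SE 0.31, adjusted p = 5.21e-05). In all, 4 of 6 members tested were called, against 4.02% of all tested genes (442 of 11008), with a median member log2 fold change of 3.15 (0.05 for all genes). NTC replicate 2, on its own scale, read 1.49 for Ms4a4c, 3.19 for Ms4a6c, 2.45 for Ms4a6b and 4.95 for Ms4a6d, and taking it in as deposited leaves the same 4 members called. Ms4a7 was lower in KO (7.53, 7.03 and 6.86 against 8.42 and 8.26; -1.20, SE 0.35, adjusted p = 0.0315), short of the fold limit, and its adjusted p is 0.0873 to 0.163 without KO replicate 2 or 3 or NTC replicate 1 or 3, and 0.075 without the filter. Ms4a3 has a count ratio of 13.5 between NTC and KO with an interval of 2.02 to 1357, and Ms4a4a was near the lowest value in KO (-2.28, -3.43 and -3.43) and at -0.20 and 0.11 in NTC. Marker sums of other cell types move as well: border macrophage markers are at 59.8 to 90.5 CPM in KO against 770 and 631 in NTC, neutrophil markers at 69 to 82.6 against 15.4 and 10.7, microglia markers at 590 to 613 against 260 and 422, and monocyte markers at 1425, 1039 and 620 against 1864 and 1491. Of the interferon-induced list all 10 were called (Ifit1 10.54, 10.19 and 9.27 against 4.03 and 3.87; 6.05, adjusted p = 2.42e-06). Tmem176a (-2.60, adjusted p = 0.00751) and Tmem176b (-3.44, adjusted p = 0.0013) were lower in KO.

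Maturation of NTC cells gives the baseline for that difference. The NTC progenitors bear library names that begin with NTC2Prog, and the NTC macrophages in the fit are named NTC-1 and NTC-3. What these names stand for is not stated, and a difference in line or batch could not be told apart from maturation. The same holds for the test of a different KO effect in macrophages than in progenitors. Ms4a3 goes from among the high values to next to nothing and Ms4a7 comes on. Ms4a4c and Ms4a6c are called higher, and Ms4a6b and Ms4a6d are not called.

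Ms4a3 fell from 11.17 or more in NTC progenitors to -2.62 and -1.92 in NTC macrophages (log2 fold change -13.61, SE 0.21, adjusted p = 4.59e-12, limma), and Ms4a7 rose from -1.04, -1.09 and -1.70 to 8.42 and 8.26 (9.62, SE 0.35, adjusted p = 8.11e-10). Ms4a6c, from -0.34, -0.95 and -0.75, rose by 2.74 (SE 0.36, adjusted p = 2.93e-05). No progenitor library overlaps a macrophage library in these genes. Ms4a4c gained 2.88 (SE 0.72, adjusted p = 0.00366) from values near the lowest, which shrinks to 1.00 (adjusted p = 0.0807) with a pseudocount of 1. Thus 4 of 6 members were called, against 23.5% of all tested genes (2589 of 11008), and with that pseudocount 2, Ms4a3 and Ms4a7, as Ms4a6c is then within the fold limit (1.73, adjusted p = 8.54e-05). Ms4a6b (0.41, adjusted p = 0.415) and Ms4a6d (-0.35, adjusted p = 0.328) were not called.

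The test for a different KO effect in macrophages than in progenitors called Ms4a4c (5.69, SE 0.97, adjusted p = 0.00238, limma), Ms4a6c (5.05, SE 0.48, adjusted p = 4.7e-05), Ms4a6b (3.95, SE 0.58, adjusted p = 0.000885) and Ms4a6d (2.87, SE 0.42, adjusted p = 0.00079). These 4 of 6 members compare with 4.19% of all tested genes (461 of 11008). The KO effects in progenitors and macrophages were 0.42 and 6.11 for Ms4a4c, -0.11 and 4.93 for Ms4a6c, -0.53 and 3.42 for Ms4a6b and 0.01 and 2.88 for Ms4a6d. Ms4a7 (-1.41, adjusted p = 0.0696) and Ms4a3 (-0.87, adjusted p = 0.059) were not called.

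**Figure D3:**
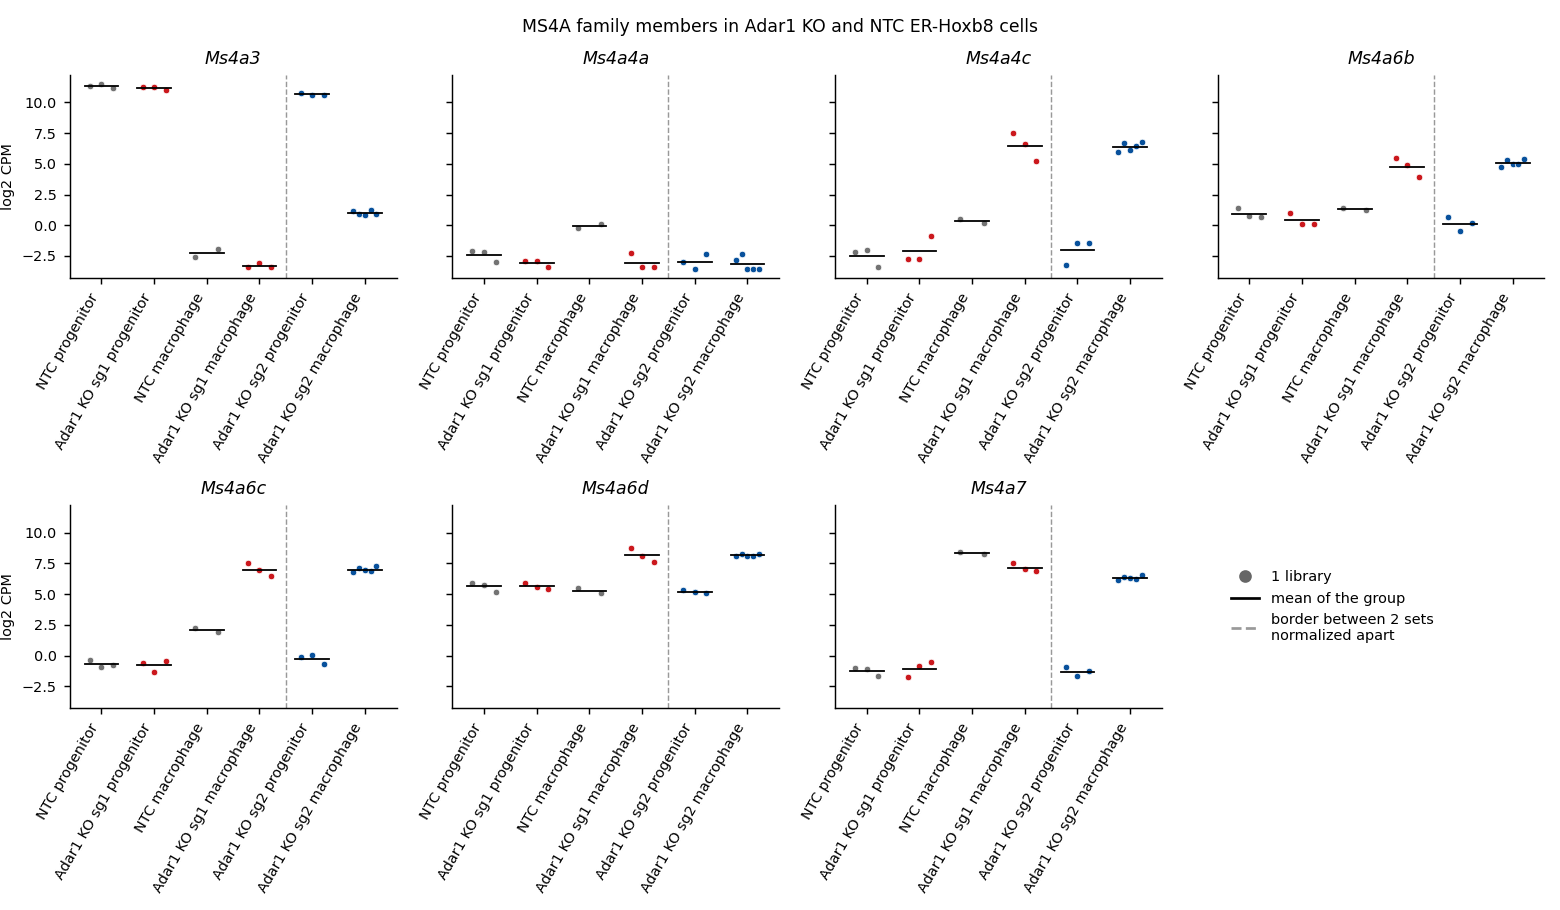
Log2 CPM of each member (1 panel per gene) in NTC (grey), KO sg1 (red) and KO sg2 (blue) cells, dots for libraries and bars for means, with a dashed line between set C and set D, which are not compared. Ms4a4c, Ms4a6b, Ms4a6c and Ms4a6d are higher in KO sg1 than in NTC macrophages, and Ms4a3 is above 10 in progenitors of all 3 guides.

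The other guide, sg2, has no NTC library on its scale, so it shows maturation of KO cells and not the KO effect. All 6 members tested change between sg2 progenitors and macrophages. Ms4a3 goes down, and Ms4a4c, Ms4a6b, Ms4a6c, Ms4a6d and Ms4a7 go up.

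Ms4a4c read -3.24, -1.44 and -1.46 in sg2 progenitors and 5.95, 6.72, 6.13, 6.48 and 6.76 in sg2 macrophages (log2 fold change 8.46, SE 0.39, adjusted p = 1.05e-08, limma). Ms4a6b read 0.66, -0.43 and 0.18 and then 4.71, 5.29, 5.02, 5.00 and 5.39 (4.95, SE 0.24, adjusted p = 1.33e-08), and Ms4a6d 5.30, 5.16 and 5.11 and then 8.08 to 8.30 (2.98, SE 0.06, adjusted p = 3.45e-11). Progenitors and macrophages do not overlap in any of them. Ms4a6c (7.26, SE 0.17, adjusted p = 6.15e-11), Ms4a7 (7.62, SE 0.15, adjusted p = 2.35e-11) and Ms4a3 (-9.66, SE 0.11, adjusted p = 3.8e-13) complete the 6 of 6 members, against 19.3% of all tested genes (2064 of 10698). Ms4a3 lay at 0.86 to 1.26 in these macrophages and at 10.63 to 10.75 in the progenitors. Ms4a4a was at the lowest value in 3 of the 5 macrophage libraries. Beside NTC maturation in set C, each within its own set, the changes read 2.88 (NTC) and 8.46 (sg2) for Ms4a4c, 0.41 and 4.95 for Ms4a6b, -0.35 and 2.98 for Ms4a6d, and 9.62 and 7.62 for Ms4a7. The difference between those sets was not tested. Monocyte markers went from 1100-1186 to 166-204 CPM in sg2 cells and from 1293-1507 to 1491-1864 in NTC cells, and microglia markers from 89.1-114 to 566-681 and from 87.6-160 to 260-422.

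In the baricitinib series, untreated KO cells once more hold more Ms4a4c, Ms4a6b, Ms4a6c and Ms4a6d than untreated NTC cells. Ms4a7 is now higher in KO, where in the earlier macrophages it was lower. Ms4a3 and Ms4a4a are at or near the lowest value throughout the series (25 and 29 of 33 libraries at it) and were not tested.

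Ms4a4c read 5.24, 5.43 and 5.48 in KO and -2.24, -0.98 and -2.45 in NTC at 0 µM (log2 fold change 7.27, SE 1.32, adjusted p = 0.000148, limma). Ms4a6c read 6.50, 7.13 and 7.11 against 1.73, 2.16 and 1.33 (5.18, SE 0.80, adjusted p = 2.17e-05), and Ms4a6b 3.59, 4.35 and 4.35 against 0.48, -0.76 and -0.50 (4.36, SE 0.75, adjusted p = 7.78e-05). KO is above NTC in each library for these genes and for Ms4a6d, at 8.23, 8.07 and 8.29 against 5.56, 5.57 and 5.42 (2.68, SE 0.44, adjusted p = 4.87e-05). Together 4 of 5 members tested were called, against 3.87% of all tested genes (432 of 11152). Ms4a7 was higher in KO by 1.32 (SE 0.48, adjusted p = 0.0431), within the limit, and its adjusted p is 0.0593 to 0.113 when any 1 of the 6 libraries is left out and 0.0816 without the filter. KO minus NTC in the earlier macrophages and in this series, each within its set, gave 6.11 and 7.27 for Ms4a4c, 4.93 and 5.18 for Ms4a6c, 3.42 and 4.36 for Ms4a6b, 2.88 and 2.68 for Ms4a6d, and -1.20 and 1.32 for Ms4a7. Monocyte markers were lower in KO (626 to 690 CPM against 1114 to 1404) and so were cycling markers (65.7 to 89 against 262 to 384), while border macrophage markers were higher (98.4, 95.1 and 89.1 against 55.2, 44.6 and 61), the reverse of the earlier macrophages. Adar was again higher in KO (7.42, 6.52 and 6.37 against 5.12, 4.94 and 4.69; 1.85, adjusted p = 0.0051).

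At 10 µM Ms4a4c is near its lowest value in both genotypes and no longer tells them apart. Ms4a6c and Ms4a6d still stand higher in KO.

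Ms4a4c read -2.78, -1.67, -1.93 and -2.08 in KO and -2.35, -2.38 and -2.78 in NTC (log2 fold change 0.39, SE 1.23, adjusted p = 0.827, limma), so near the lowest value that the count ratio of 3.03 has an interval from below 1 to 66.7. Ms4a6c read 4.48, 4.66, 4.06 and 4.40 against 2.07, 1.94 and 1.56 (2.55, SE 0.75, adjusted p = 0.00695). Ms4a6c separates the genotypes and Ms4a4c does not, while Ms4a6b (2.98, 2.71, 1.65 and 2.54 against 0.43, 1.23 and 0.87) and Ms4a6d do so too. Border macrophage markers are higher in KO as well (52.1 to 72.7 CPM against 15.7 to 28.4). So are microglia markers (1513 to 1891 against 1172 to 1340), progenitor markers (10.9 to 14.6 against 1.38 to 1.73) and cycling markers. Ms4a6d was higher by 1.82 (SE 0.41, adjusted p = 0.000729), within the limit, Ms4a6b by 1.62 (adjusted p = 0.06) and Ms4a7 was not different by the test (-0.28, adjusted p = 0.647). So 1 of 5 members was called, against 3.14% of all tested genes (350 of 11152), and 2 without the fold limit. At 0 and 10 µM in turn, KO minus NTC reads 7.27 and 0.39 for Ms4a4c, 4.36 and 1.62 for Ms4a6b, 5.18 and 2.55 for Ms4a6c, and 2.68 and 1.82 for Ms4a6d.

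Among KO cells no member is called at the lowest 2 doses. At 0.4 µM the replicates disagree, and at 10 µM Ms4a4c falls to the floor while Ms4a6c falls part of the way. All 4 dose steps share the same 3 untreated KO libraries.

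At 0.0006 µM Ms4a4c read 5.19, 7.01 and 6.43 (log2 fold change 0.83) and Ms4a6c 6.88, 8.07 and 7.45 (0.55). None of the 5 members was called by limma (0 at an unadjusted p under 0.05, smallest adjusted p 0.759), against 0.0628% of all tested genes (7 of 11152). The 0.016 µM libraries read 7.43, 7.30 and 5.99 for Ms4a4c (1.52, adjusted p = 0.554) and 5.36, 5.64 and 4.51 for Ms4a6b (1.07, adjusted p = 0.44). Again limma called 0 of 5 members (0 at an unadjusted p under 0.05), against 0.152% of all tested genes (17 of 11152). Ms4a7 read 6.36, 6.63 and 6.98 at 0.016 µM against 6.99, 6.94 and 7.18 untreated (-0.38), with overlap. In Ms4a4c, Ms4a6b, Ms4a6c and Ms4a6d, every 0.016 µM library lies above every untreated one. What share of all genes separates this way was not counted, and these members vary together over set E (r 0.79 to 0.97). No rise is read from the separation. Ms4a4c lay at 5.99 or more against 5.48 at most untreated, and Ms4a6b at 4.51 or more against 4.35. For Ms4a6c the values are 7.46 or more against 7.13, and for Ms4a6d 8.36 or more against 8.29.

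The 0.4 µM libraries split, with Ms4a4c at -1.06, 9.24 and 1.85, Ms4a6c at 3.25, 9.13 and 3.21 and Ms4a7 at 3.58, 7.10 and 4.15. Replicate 2 is above every untreated library in Ms4a4c and Ms4a6c and the other replicates are below them. Ms4a7 was the 1 of 5 members called (-2.09, SE 0.48, adjusted p = 0.00194, limma), against 1.93% of all tested genes (215 of 11152). Without replicate 2 the called members are Ms4a4c, Ms4a6b, Ms4a6c and Ms4a7 (Ms4a7 -3.17, adjusted p = 5.14e-10), and without replicate 1 or replicate 3 there are none. Ifit1 (0.54, 11.78 and 3.03) and Adar (4.12, 7.38 and 4.21) split the same way, so replicate 2 differs in more than the members. Its marker sums point both ways. Nearer the other 0.4 µM libraries are monocyte markers at 1885 CPM (others 2414 and 2026, untreated 626 to 690), microglia markers at 1873 (1667 and 1587, untreated 672 to 1020) and border markers at 12.1 (37.7 and 29.5, untreated 89.1 to 98.4). Nearer the untreated libraries are neutrophil markers at 76.3 (245 and 325, untreated 54 to 67.4). Replicate 2 may be mislabelled, which would change what the 0.4 µM values mean, and it was kept as labelled. Why it differs was not tested.

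At 10 µM Ms4a4c fell by 7.50 (log2 fold change -7.50, SE 1.23, adjusted p = 5.92e-06, limma), to -1.67 or less from 5.24 or more. Ms4a6c fell by 2.52 (SE 0.75, adjusted p = 0.00459), from 6.50 or more to 4.66 or less, again without overlap. Ms4a6b changed by -1.63 (SE 0.70, adjusted p = 0.0427) and Ms4a7 by -1.19 (SE 0.45, adjusted p = 0.0213), both within the limit. Ms4a6b has an adjusted p of 0.0537 to 0.115 without KO 0 µM replicate 2 or 3 or KO 10 µM replicate 2, 3 or 4, 0.0798 without the filter and 0.0524 with library medians made equal. Ms4a7 goes over 0.05 without KO 0 µM replicate 3 (adjusted p = 0.0607) or KO 10 µM replicate 3 (-0.90, adjusted p = 0.0905). Ms4a6d was at 8.18, 7.94, 7.35 and 7.73 (-0.40, SE 0.41, adjusted p = 0.408), barely under its untreated level. That is 2 of 5 members called, against 14.7% of all tested genes (1635 of 11152), and 4 without the fold limit. Over the doses 0.0006, 0.016, 0.4 and 10 µM, Ms4a4c reads 0.83, 1.52, -2.04 and -7.50, Ms4a6c 0.55, 1.11, -1.72 and -2.52, and Ms4a6d 0.25, 0.40, -0.70 and -0.40. From 0 to 10 µM the KO libraries are also higher in monocyte markers (626-690 CPM, then 1712-2291), microglia markers (672-1020, then 1513-1891) and cycling markers (65.7-89, then 1172-1898) and lower in border macrophage markers (89.1-98.4, then 52.1-72.7). Of the 10 interferon-induced genes 9 were called lower at 10 µM, with Ifit1 at 8.83, 8.96 and 9.15 untreated and 0.32 to 1.26 treated, and Adar fell by 4.61 (adjusted p = 8.68e-10).

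In NTC cells no member is called at 10 µM. The SEs of set E are shared over all its groups and are widened by the split KO libraries at 0.4 µM. For Ms4a6d the SD is 1.91 there, and 0.08 and 0.15 in NTC at 0 and 10 µM. An adjusted p over 0.05 in set E therefore does not show that a member is unchanged. Ms4a6c read 2.07, 1.94 and 1.56 against 1.73, 2.16 and 1.33 (0.12), and Ms4a6d 5.94, 5.85 and 6.15 against 5.42 to 5.57 untreated (0.46, adjusted p = 0.533), the latter without overlap. None of the 5 members was called by limma (0 at an unadjusted p under 0.05), against 0.834% of all tested genes (93 of 11152). Ms4a4c is too low in both groups for more than a count ratio of 5 (interval 1.03 to 110). Monocyte markers are higher at 10 µM in NTC too (2087 to 2316 CPM against 1114 to 1404), as are microglia markers (1172 to 1340 against 849 to 918) and cycling markers (620 to 960 against 262 to 384). Border macrophage markers (15.7 to 28.4 against 44.6 to 61) and macrophage markers (43931 to 47944 against 61916 to 66645) are lower.

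The test for a different drug effect in KO than in NTC called Ms4a4c (-6.88, SE 1.80, adjusted p = 0.00354, limma) and Ms4a6b (-2.74, SE 1.03, adjusted p = 0.0354), 2 of 5 members against 7.11% of all tested genes (793 of 11152). For Ms4a4c this restates the untreated difference, because NTC Ms4a4c (mean -1.89 at 0 µM) had hardly any room to fall before the lowest value of -2.78. The 10 µM effects in KO and NTC were -7.50 and -0.62 for Ms4a4c, -1.63 and 1.10 for Ms4a6b, -2.52 and 0.12 for Ms4a6c and -1.19 and 0.41 for Ms4a7. Ms4a6c (-2.63, adjusted p = 0.0584) and Ms4a7 (-1.60, adjusted p = 0.0538) were just short. Ms4a6b drops out (adjusted p 0.057 to 0.0803) with a pseudocount of 1, without the expression filter, or when any of NTC 0 µM replicates 2 and 3, NTC 10 µM replicates 2 and 3, KO 0 µM replicates 2 and 3 or KO 10 µM replicate 3 is left out, which leaves 1 member.

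**Figure D4:**
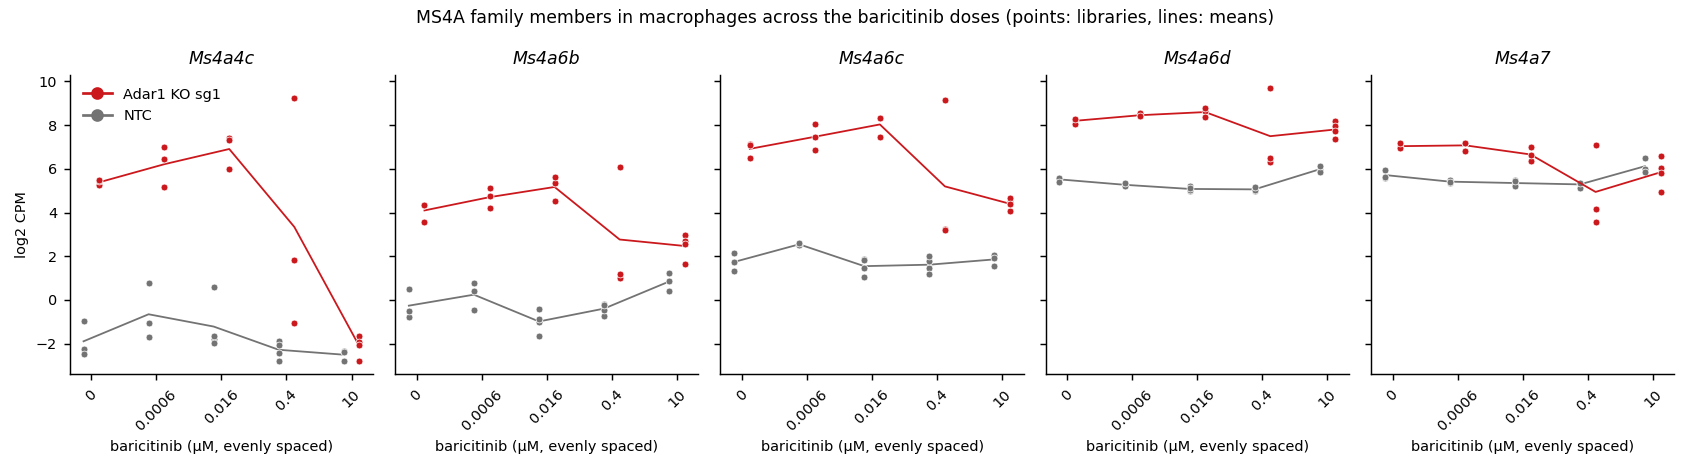
Log2 CPM of Ms4a4c, Ms4a6b, Ms4a6c, Ms4a6d and Ms4a7 (1 panel per gene) by baricitinib dose in µM, doses evenly spaced, KO in red and NTC in grey, dots for libraries. KO Ms4a4c is at 5.24 to 5.48 without drug and at -1.67 or less at 10 µM, where Ms4a6d is still at 7.35 or more.

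The genes most like each member across libraries differ between the sets. In set A, Ms4a3 runs with Prtn3 (r = 0.98) and Ctsg (0.96), Ms4a4c and Ms4a4a with Arsi (0.99 and 0.98), Ms4a6c with Stxbp6 (0.99), Ms4a6d with Casp1 (0.99) and Ms4a7 with Slc26a11 (0.96). In set B, Ms4a4a runs with Ctsh (0.91), Ms4a6b with Slamf6 (0.96), Ms4a6c with Gpr65 (0.95), Ms4a6d with Med11 (0.88) and Ms4a7 with Tlr8 (0.93). In set E, Ms4a6b and Ms4a6c run with Ly6e (0.96 and 0.98), Ms4a4c with Phf11d (0.98) and Ms4a6d with Aoah (0.98), while the closest to Ms4a7 is Optn (0.86). Among themselves, Ms4a4a, Ms4a4c, Ms4a6b and Ms4a6c have r of 0.93 to 0.99 in set A, and Ms4a4c, Ms4a6b, Ms4a6c and Ms4a6d 0.79 to 0.97 in set E. Ms4a3 stays outside, at 0.09 to 0.34 with the other members in set B. In set A it is at 0.34 to 0.42 with Ms4a4a, Ms4a4c, Ms4a6b and Ms4a6c, -0.33 with Ms4a6d and -0.79 with Ms4a7. These r values follow differences between groups and were not tested.

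Some limits apply to all of this. The study made independent ER-Hoxb8 lines for the comparison with BMD cells and calls its replicates biological or separately differentiated. It does not give the line or animal behind each library, so p-values measure only the spread between these samples. Groups hold 2 to 9 libraries, and 1 library can decide a call, as with day-0 replicate 2 and KO replicate 2 at 0.4 µM. Scales that differ between the sets keep marrow monocytes from being set against MLCs, sg2 against NTC, and the dish macrophages of one set against those of another. What sets the GFPHox and WTHox libraries apart is not stated. Protein was not measured here.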

How the data were processed

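The values are log2 CPM as deposited. The authors trimmed reads with fastp, assigned them with kallisto 0.46.0, summed them to genes with tximport and used edgeR for TMM scaling. The table has 29957 entries, of which 1 has no gene name (0.0023% to 0.0585% of the CPM of a library) and 29956 are named. The size of 1 count was read from the commonest small CPM of each library, and depth and counts estimated with it serve for detection limits and count ratios only.

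In each set, genes with a CPM over 1 in at least 3 libraries (6 in the set of 27) were fitted with limma 3.58.1 in R 4.3.3, 1 fit per set without a block, with p adjusted over all tested genes. The fits were tried on simulated data first. Members and marker lists were fixed before the values were read, with the published results of the study known. Same-numbered libraries deviate together in all 3 pairs for day 4 against day 0 (r 0.23 to 0.43) and for KO sg1 against NTC progenitors (r 0.16 to 0.35), where the pairing is read from the data. Alternatives were a pseudocount of 1, no filter, equal medians, no fold limit, a replicate block, the GFPHox or WTHox libraries alone and leaving out each library. Python 3.11.15 with numpy 2.4.6, pandas 2.3.3, scipy 1.17.1 and matplotlib 3.10.9 made the other tables and figures.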

Additional observations from a re-analysis of the deposited data

Results flagged for a closer look

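A Dixon test for libraries far from the others of their group examined 45 combinations of a member and a group and would mark about 1 in 20 by chance. It marked 4. Ms4a3 read 3.38 in microglia replicate 5, where the next of the 9 libraries read 0.19, and that library has the most neutrophil marker transcripts of the microglia (5735 CPM). Ms4a4c read 0.58 in NTC replicate 1 at 0.016 µM, next to -1.67, -1.80 and -1.97 in the other 3. Ms4a3 read -2.20 in NTC replicate 3 at 0.4 µM and -1.94 in KO replicate 4 at 10 µM, where the other libraries of both groups are tied at the lowest value, -2.78. With such ties any value above the lowest is marked, so these last 2 marks do not show libraries that lie far apart.

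Other results were marked because an effect differs between groups of cells by a test of that difference. The KO effect in macrophages exceeds that in progenitors by 5.69 for Ms4a4c, 5.05 for Ms4a6c, 3.95 for Ms4a6b and 2.87 for Ms4a6d. The effect of 10 µM baricitinib in KO cells differs from that in NTC cells by -6.88 for Ms4a4c and by -2.74 for Ms4a6b. For Ms4a4c the NTC mean of -1.89 at 0 µM is close to the lowest value, so that difference was largely fixed by the untreated cells. Whether the members respond to interferon here was not tested.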

How the results depend on the processing

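Counts of called members were refitted under another setting or without a library, and the most similar genes were named anew by Spearman rho. Of these 318 counts, 289 were within 1.5 times the printed count and 29 moved, the Spearman count among them. The refitted values of single members cover results with an adjusted p under 0.05 in the main fit. Of these 1015 values, 955 kept their direction and their side of 0.05 and 0 reversed. The other 60 kept the direction with an adjusted p over 0.05. Members over 0.05 at first are not among them, so calls gained under another setting show only in the counts. Where no reason is given, the cause was not tested.

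Leaving out 1 library gave 0 to 2 called members for day 4 against day 0 (printed 0), 1 to 4 for ER-Hoxb8 against BMD macrophages (printed 3), 1 to 2 for ER-Hoxb8 against BMD MLCs (printed 2), 0 to 4 for KO at 0.4 µM (printed 1) and 1 to 2 for the difference in drug effect (printed 2). The 2 for day 4 arise without day-0 replicate 2, with 738 genes called in all against 0. For ER-Hoxb8 against BMD MLCs the count is 1 with the GFPHox or the WTHox libraries alone and without the filter. A pseudocount of 1 gives 2 members in place of 4 for NTC maturation and 1 in place of 2 for the difference in drug effect, which is also 1 without the filter. No fold limit gives 2 in place of 1 for KO against NTC at 10 µM and 4 in place of 2 for KO at 10 µM against 0 µM. With only the compared groups in the fit, chosen after seeing the data, the count is 0 in place of 3 for ER-Hoxb8 against BMD macrophages and 0 in place of 1 for KO at 0.4 µM. By Spearman rho, 16 of the 57 most similar genes stay among those named.

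The replicate block, where numbers are shared, moved no count of members by more than 1.5 times: 0 members were called with it for day 4 against day 0 and for KO sg1 against NTC progenitors, 5 for monocytes and 4 for KO macrophages. With the block the adjusted p passes 0.05 for Ms4a6d in BMD MLCs against macrophages (1.46, 0.0819), for Ms4a7 in KO macrophages (-1.24, 0.051) and for Ms4a7 in KO at 0 µM (1.32, 0.0537). Ms4a3 and Ms4a4a are at or near the lowest value in set E in shallow (6.0 M counts) and deep libraries (34.3 M counts) alike.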

Other observations

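Ms4a2, a family relative, and Fcer1a encode chains of the IgE receptor, and both are high in the marrow groups, where basophil and mast cell markers are plentiful. In marrow progenitors Ms4a2 lay between 5.87 and 6.88 and in monocytes between 6.37 and 6.93, with 3 other basophil and mast cell markers (Ms4a2 and Fcer1a left out of the sum) at 2944 to 4499 and 3594 to 4927 CPM. ER-Hoxb8 cells at day 0 had less Ms4a2 than marrow progenitors (-6.27, adjusted p = 0.000954, limma) and less Fcer1a (-8.77, adjusted p = 3.08e-07), but more of the shared chain Fcer1g (2.87, adjusted p = 0.00371). Fcer1g does not go with basophil markers, at group means of 10.40 to 11.35 in all groups of set B. Among the MLCs, BMD replicate 3 has Ms4a2 at 3.89, Fcer1a at 3.18 and 141 CPM of the 3 markers, whereas ER-Hoxb8 replicate 5 has Ms4a2 at 1.99 and 200 CPM but Fcer1a at the lowest value, -3.62. KO sg1 and NTC progenitors hold Ms4a2 (1.97 to 2.24 and 1.95 to 2.33) with Fcer1a at the lowest value and 1.38 CPM of the 3 markers at most. Ms4a2 fell by 5.51 from NTC progenitors to NTC macrophages (adjusted p = 2.56e-08, limma). Both NTC macrophage libraries in that fit were at the lowest value, -3.43, which sets the size of this change.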
